A study of Canis lupus familiaris with 8 samples.

Results

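TRAV24-bearing T cells were all cells in which a T cell receptor alpha (TRA) contig had been called with the variable gene TRAV24, and 938 such cells were found among 20794 cells with a TRA contig and 31909 cells that passed the quality limits (500 to 20000 unique molecular identifiers, UMIs, and a mitochondrial share of at most 10%). They were compared with the 19856 other cells that carried a TRA contig but none with TRAV24. The cells were chosen by the V gene call of the sequenced receptor alone, but FCER1G, TOX and CD8A were already known to mark these cells in this data set when they were singled out, so that their levels in TRAV24 cells against other cells are given as a description, with no test.

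Each alpha beta T cell assembles its TRA chain by joining 1 of many V genes to 1 of many J genes, with bases trimmed and added at the joint, and pairs it with a beta chain (TRB) made in the same way. Cells that descend from 1 rearranged cell carry the same junction, but the same junction can also arise more than once. Cells with 1 TRA junction are therefore called a rearrangement here. The word clone is kept for cells that share a TRA rearrangement and the same set of TRB contigs, which can be empty. CD8A encodes a chain of the coreceptor that binds MHC class I, whereas CD4 binds MHC class II. FCER1G encodes the Fc receptor gamma chain, a signalling adaptor best known from natural killer cells, mast cells and macrophages and also used by innate-like T cells, and TOX encodes a nuclear factor needed for T cell development and active in persistently stimulated CD8 T cells.

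Blood of 4 healthy Beagles, which had their routine vaccinations and for which the labels name no treatment, was sorted for TCRαβ+ T cells, and 5′ gene expression and V(D)J sequences were obtained from the same cells, with no other condition. The dogs were a female aged 5 years (dog 1), males aged 7 years (dogs 2 and 3) and a male aged 9 years (dog 4). After the quality limits, 7096, 8454, 8109 and 8250 cells of dogs 1 to 4 remained, with medians of 3599.0, 3931.5, 3795.0 and 3847.0 UMIs. Replicates are the 4 dogs, each with 1 library.

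The libraries of dogs 1 and 4 held the same receptors in some cells. Of 14771 paired receptors (identical TRA and TRB nucleotide junctions and genes), 47 occurred in 2 dogs, and in each case these were dogs 1 and 4. They accounted for 47 cells of dog 1, or 1.19% of its 3956 paired cells. Of the TRAV24 cells of dog 1, 3 carried the pair that 119 cells of dog 4 carried, and all 3 had FCER1G and CD8A UMIs. The barcodes of these 3 cells did not occur in the library of dog 4. Pairs of libraries shared between 87 and 120 cell barcodes, with 87 for dogs 1 and 4. The main FCER1G values of dog 1 are given with and without the cells that carried a receptor of dog 4. Without them, 47 of the 51 calls in all cells, 13 of the 17 in CD8A sp cells and 396 of the 404 against TRAV9-11/TRAJ28 cells (402 tested), described below, were kept.

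TRAV24 was present in every dog at a similar share. It was carried by 202 of the cells with a TRA contig in dog 1 (4.62%, 95% exact binomial interval 4.01 to 5.28), 273 in dog 2 (5.03%, 4.47 to 5.65), 188 in dog 3 (3.45%, 2.98 to 3.97) and 275 in dog 4 (4.96%, 4.41 to 5.57), and averaged 4.52% ± 0.736 (SD, n = 4). These and the other intervals cover counting error only. The receptor call matched the expression library, since a TRAV24 UMI was found in 99.5, 99.6, 99.5 and 100% of the members but in 1.03, 1.07, 0.873 and 1.69% of the other cells with a TRA contig. Their depth was close to that of the other cells, with medians of 4153.5, 4242.0, 4153.5 and 4237.0 UMIs against 3853.5, 4300.5, 4068.0 and 4091.0.

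The 940 TRAV24 contigs formed 569 rearrangements (distinct combinations of dog, TRAJ gene and nucleotide junction), of which 169, 162, 144 and 94 belonged to dogs 1 to 4. Most rearrangements, 506 of 569, were seen in 1 cell. Of the 63 seen in several cells, 17 were seen in at least 5 and 7 in at least 15, and these 7 together held 243 cells. The junctions of those 7 are shown because most FCER1G+ TRAV24 cells belonged to 4 of them, together with a smaller TRAJ52 rearrangement of dog 3 that resembles one of them in sequence. Junctions run from the conserved cysteine codon to the codon of the conserved phenylalanine or tryptophan of the J gene, 5′ to 3′, and are deposited contig sequence. Capitals mark the bases between the unbroken match to the common end of TRAV24 (tgtgcctcca, 10 bases, read from the contigs themselves) and the unbroken match to the most frequent sequence of the J gene, so they hold added bases but also any base beyond a mismatch.
Dog 4 TRAJ38, 121 cells: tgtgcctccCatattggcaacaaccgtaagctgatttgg
Dog 4 TRAJ58, 25 cells: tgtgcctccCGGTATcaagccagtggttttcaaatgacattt
Dog 2 TRAJ52, 20 cells: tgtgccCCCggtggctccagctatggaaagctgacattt
Dog 2 TRAJ48 form A, 20 cells: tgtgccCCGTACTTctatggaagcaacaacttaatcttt
Dog 2 TRAJ48 form B, 19 cells: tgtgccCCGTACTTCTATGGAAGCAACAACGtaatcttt
Dog 2 TRAJ48 form C, 19 cells: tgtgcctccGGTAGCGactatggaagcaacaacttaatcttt
Dog 1 TRAJ34, 19 cells: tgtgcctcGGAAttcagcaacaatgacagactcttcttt
Dog 3 TRAJ52, 10 cells: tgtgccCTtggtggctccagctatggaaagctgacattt

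The 7 large rearrangements used 5 TRAJ genes and, apart from 1 pair in dog 2, different TRB partners. All but 1 base of the TRAJ38 junction of dog 4 matched the V and J ends, and 119 of its 121 cells had the same TRBV3-1/TRBJ2-1 chain. In 100 of them another TRA contig, TRAV9-7/TRAJ45, was present as well. The TRAJ58 rearrangement of the same dog was also paired with TRBV3-1, here joined to TRBJ1-6, in 22 of 25 cells, and carried TRAV22/TRAJ56 as another TRA contig in 15. The TRAJ52 rearrangement of dog 2 was paired with TRBV7/TRBJ1-1 in 19 of 20 cells, the TRAJ34 rearrangement of dog 1 with TRBV25/TRBJ2-6 in 19 of 19, and form C of dog 2 with TRBV16/TRBJ2-1 in 19 of 19.

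Forms A and B of dog 2 differed by 1 of 39 bases. The difference was T31G, with positions counted from 1 at the 5′ end of the junction, the base of form A first. Both had the same 2 TRB chains, TRBV10/TRBJ1-6 (20 of 20 and 18 of 19 cells) and TRBV1/TRBJ2-6 (15 of 20 and 14 of 19 cells). No cell held both junctions. The J end of form B was found in 1 of the 153 TRAJ48 rearrangements of dog 2, that of form B itself, and in none of the 106, 132 and 107 TRAJ48 rearrangements of dogs 1, 3 and 4. In expression the pair was alike in the 3 genes of interest, with FCER1G in 19 of 20 and 19 of 19 cells, TOX in 30.0 and 21.1% and CD8A in 100% of both. Whether the differing base is in the DNA of the cells was not tested.

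The TRAV24 cells leaned towards CD8A, but to an extent that differed between the dogs. A cell was counted as CD8A single positive (CD8A sp) when it had a CD8A UMI and no CD4 UMI, and as CD4 sp in the opposite case. CD8A sp cells made up 26.7, 56.4, 29.8 and 65.1% of the TRAV24 cells of dogs 1 to 4 against 11, 17.4, 30.1 and 22.6% of the other cells with a TRA contig. They were more frequent in dogs 1, 2 and 4 and equally frequent in dog 3. The means were 44.5% ± 19.1 and 20.3% ± 8.06 (SD, n = 4). CD4 sp cells were less frequent in all 4 dogs, with 38.6, 17.9, 32.4 and 13.1% against 54.6, 46.6, 34.7 and 45.1% (exact sign-flip permutation test over dogs, two-sided p = 0.13, adjusted over 5 tests p = 0.31, n = 4). With 4 dogs the smallest p this test can give is 0.13, so it cannot pass 0.05. The 5 tests also covered the CD8A sp, FCER1G+ and TOX+ shares, whose p-values are not given, and the share with another TRA contig. CD4 sp cells are defined in part by the lack of a CD8A UMI, so their share is not independent of that marker. Between 20 and 35.6% of the TRAV24 cells had no UMI of either gene.

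FCER1G+ cells were clearly more frequent among the TRAV24 cells of dogs 2 and 4, slightly more frequent in dog 1 and less frequent in dog 3. At least 1 FCER1G UMI was found in 4.46, 18.3, 4.79 and 54.9% of the TRAV24 cells and in 2.87, 6.21, 5.91 and 4.94% of the other cells. Without the dog 1 cells that carried a receptor of dog 4, the shares in dog 1 were 3.02 and 2.81%. TOX followed the same order of dogs, with 21.3, 38.1, 24.5 and 57.1% against 23.7, 25.2, 20.5 and 25.6%. Both genes together were found in 2.97, 5.86, 1.60 and 43.6% of the TRAV24 cells and in 0.719, 1.75, 1.12 and 1.77% of the others, and in 2.01% of the TRAV24 cells of dog 1 without the shared cells. FCER1G was thus higher in dogs 1, 2 and 4, by little in dog 1, and TOX in dogs 2, 3 and 4. CD8A sp cells were more frequent in dogs 1, 2 and 4. As a measure of free RNA, FCER1G UMIs occurred in 0.0877, 0.625, 0.383 and 0.463% of the other CD4 sp cells, at medians of 3942.5, 4387.0, 4189.0 and 4265.0 UMIs, so the shares above exceeded that level in every dog. TOX UMIs, by contrast, occurred in 24.7 to 27.5% of the other CD4 sp cells.

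Within CD8A sp cells the order depended on which other cells were used. FCER1G was found in 13, 31.2, 12.5 and 77.7% of the CD8A sp TRAV24 cells and in 22.4, 29.1, 17.9 and 19.3% of the other CD8A sp cells. The other CD8A sp cells included 153, 181, 244 and 96 cells of a receptor group with TRAV9-11 joined to TRAJ28, in which FCER1G was high in dogs 1 to 3 but not in dog 4. Without that group FCER1G was found in 12.1, 17.4, 6.95 and 19.0% of them, so the TRAV24 share was higher in dogs 2, 3 and 4 and near equal in dog 1. Without the receptors shared with dog 4, the TRAV24 share of dog 1 was 7.84% (4 of 51 cells). TOX was found in 18.5, 43.5, 33.9 and 69.3% of the CD8A sp TRAV24 cells against 25.7, 26.6, 19.3 and 29.0%, higher in dogs 2, 3 and 4 and lower in dog 1, and the same order of groups was seen against 35.3, 31.0, 21.4 and 30.9% without the TRAV9-11/TRAJ28 cells.

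**Figure D1:**
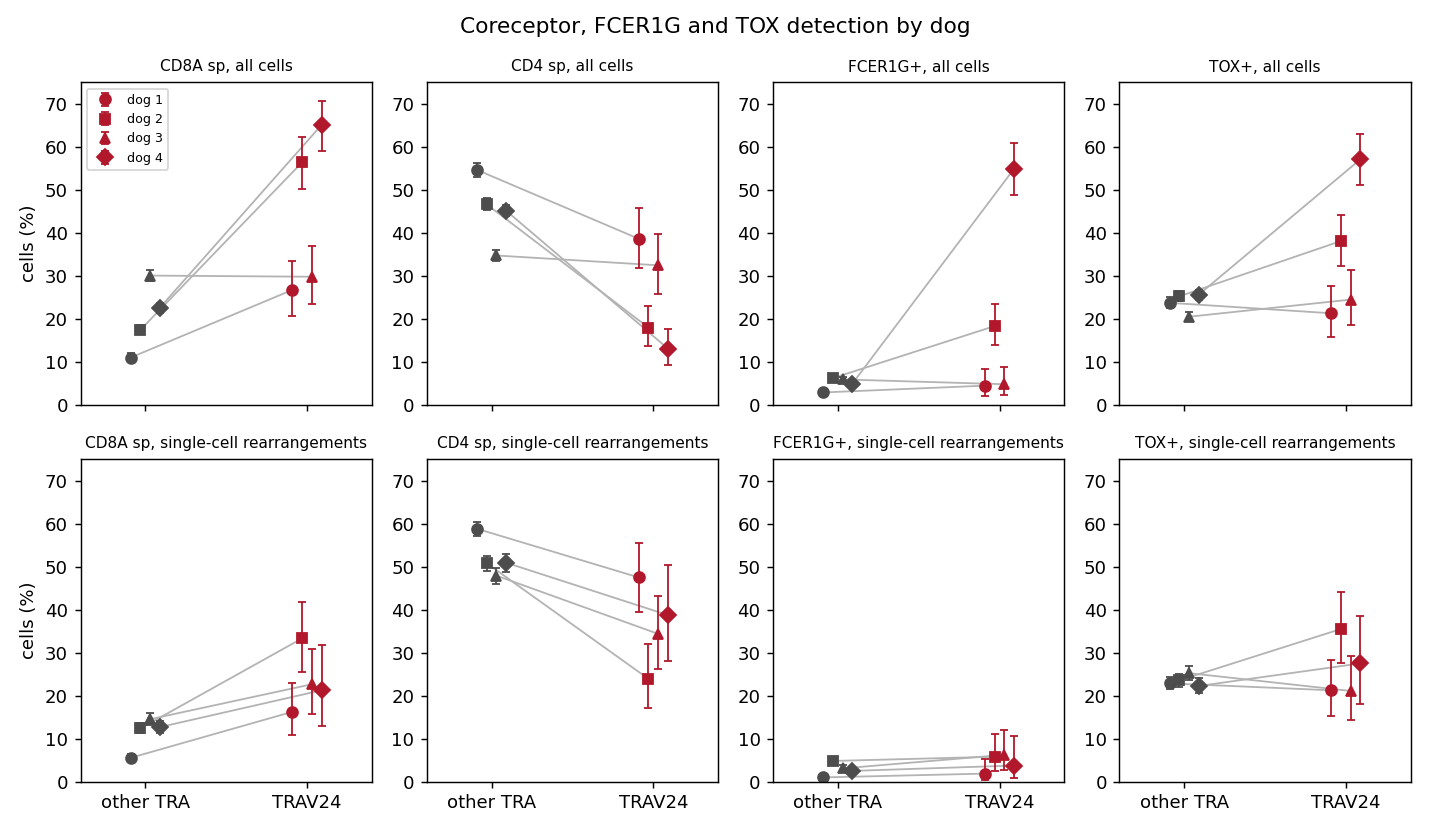
Share of cells (%) that were CD8A sp, CD4 sp, FCER1G+ and TOX+ (at least 1 UMI), for other cells with a TRA contig (grey) and TRAV24 cells (red), with 1 symbol per dog, 95% exact binomial intervals and lines joining the 2 groups of a dog. In the upper row all cells are used and FCER1G+ reaches 54.9% in dog 4, whereas in the lower row, with rearrangements seen in 1 cell only, the FCER1G+ shares of TRAV24 cells lie between 1.87 and 6.25%.

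The FCER1G signal lay in a few rearrangements. Of the 219 FCER1G+ TRAV24 cells, 183 (83.6%) belonged to 4 rearrangements, namely TRAJ38 and TRAJ58 of dog 4 and forms A and B of dog 2. The gene was found in 100, 96, 95 and 100% of their cells, at 1838, 2159, 2876 and 2674 CPM (UMIs of the gene over all UMIs of the summed cells, on the usual CPM scale). In 11 of the 17 rearrangements of at least 5 cells no cell had an FCER1G UMI. These included 3 of the 7 large ones, TRAJ52 and form C of dog 2 and TRAJ34 of dog 1, in which 0 UMIs allow at most 28.7, 35.2 and 38.1 CPM (3 counts of the summed UMIs). FCER1G was therefore either in nearly every cell or in none of the large rearrangements, and most rearrangements of at least 5 cells lacked it.

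Among cells whose rearrangement was seen once, the mean differences in CD8A sp, CD4 sp, FCER1G and TOX shares were smaller, and of these 4 all but TOX had the same sign in every dog. FCER1G was found in 1.87, 5.80, 6.25 and 3.75% of such TRAV24 cells against 0.989, 4.82, 3.09 and 2.5% of other such cells, higher in 4 of 4 dogs by a mean of 1.57 percentage points. TOX was found in 21.3, 35.5, 21.1 and 27.5% against 22.9, 23.6, 25.2 and 22.3%, higher in 2 of 4 dogs. CD8A sp cells made up 16.3, 33.3, 22.7 and 21.3% against 5.55, 12.4, 14.5 and 12.7%, higher in 4 of 4 dogs, dog 3 included. CD4 sp cells were fewer in 4 of 4, with 47.5, 23.9, 34.4 and 38.8% against 58.8, 50.8, 47.9 and 50.9%. This restriction was chosen once the values were known.

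**Figure D2:**
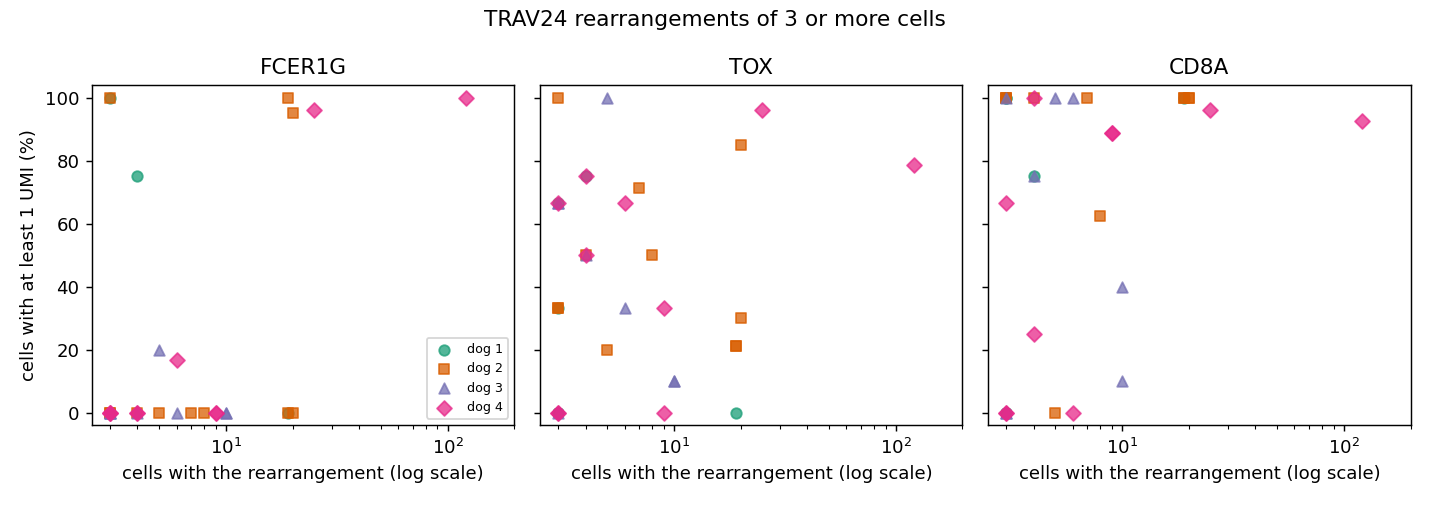
Share of cells (%) with at least 1 UMI of FCER1G, TOX and CD8A in each TRAV24 rearrangement of 3 or more cells, against the number of cells that carry it (log scale), coloured by dog. FCER1G is either at 95% or above, or at 0, in the 7 rearrangements of at least 15 cells, while CD8A is at 92.6% or above in all 7.

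By their genes the 7 large rearrangements fell into dissimilar profiles. They are described without a test, since each is 1 rearrangement of 1 dog and the grouping was made after the values were seen. TRAJ38 and TRAJ58 of dog 4 and TRAJ52 of dog 2 had TOX in 78.5, 96.0 and 85.0% of their cells, against 0 to 30.0% in the other 4. The same 3 were the only large rearrangements with UMIs of GCSAM, a signalling protein known from germinal centre B cells (35.5, 72 and 40% of cells), and of CCR9, the receptor that directs lymphocytes to the small intestine (39.7, 48 and 55%). CCR6, another homing receptor, was found in 26.4, 36 and 45% of their cells and in at most 5.26% in the others. TCF7, a factor of naive and memory T cells, was found in 77.7, 92 and 75%, against 10.5 to 40%, although CCR7, which guides naive cells to lymph nodes, was at 0 in all 3. ITGAE, the integrin chain that binds E-cadherin on epithelium, was found in 44.6, 60 and 65% against 10 to 26.3%.

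Of the 9 cytotoxic genes, 5 (CCL4, FASLG, GZMB, GZMK and PRF1) were lower in each of these 3 rearrangements than in each of the other 4, and CCL5, CST7, CTSW and GZMA were not split this way. GZMB, the granzyme that triggers apoptosis, stood at 98.3, 217 and 95.6 CPM in TRAJ38 and TRAJ58 of dog 4 and TRAJ52 of dog 2. In forms A and B of dog 2, TRAJ34 of dog 1 and form C of dog 2 it stood at 1512, 2129, 2975 and 4024 CPM, and their 95% exact Poisson intervals did not overlap those of the first 3. GZMK was found in 0.826, 4.00 and 0% of the cells of the first 3 and in 65.0, 68.4, 89.5 and 94.7% of the cells of the other 4. KLRB1, the receptor CD161 of natural killer and mucosal-associated T cells, was at 0 in the first 3 and in form C but was found in 84.2% of the TRAJ34 cells of dog 1, which also had KLRG1 in 73.7% and NCR3, a receptor that activates natural killer cells, in 78.9%. CCL5, a chemokine released by cytotoxic cells, was highest in forms A and B, at 13399 and 11687 CPM, against 394 to 5067 CPM in the other 5.

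FCER1G did not follow this division. It was present in 2 of the 3 TOX-high rearrangements and in 2 of the 4 with high granzyme levels. The latter 2 were forms A and B of dog 2, which had the same TRB chains and may not be separate cases. CD5, a surface protein that dampens receptor signalling, was nearly missing in the TRAJ38 and TRAJ58 cells of dog 4 (1.65 and 4.00% of cells, 3.93 and 7.24 CPM) but was found in 100% of the TRAJ52 cells of dog 2 at 784 CPM. CD5 was found in 71.9 to 78.3% of the TRAV24 cells of single-cell rearrangements and in 54.7 to 62.2% of other CD8A sp cells. Form B, with 10.5%, was the only other large rearrangement below 50%. Median depths were 4252, 5397, 5058, 3404, 4311, 3068 and 4779 UMIs for TRAJ38, TRAJ58, TRAJ52, form A, TRAJ34, form B and form C.

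**Figure D3:**
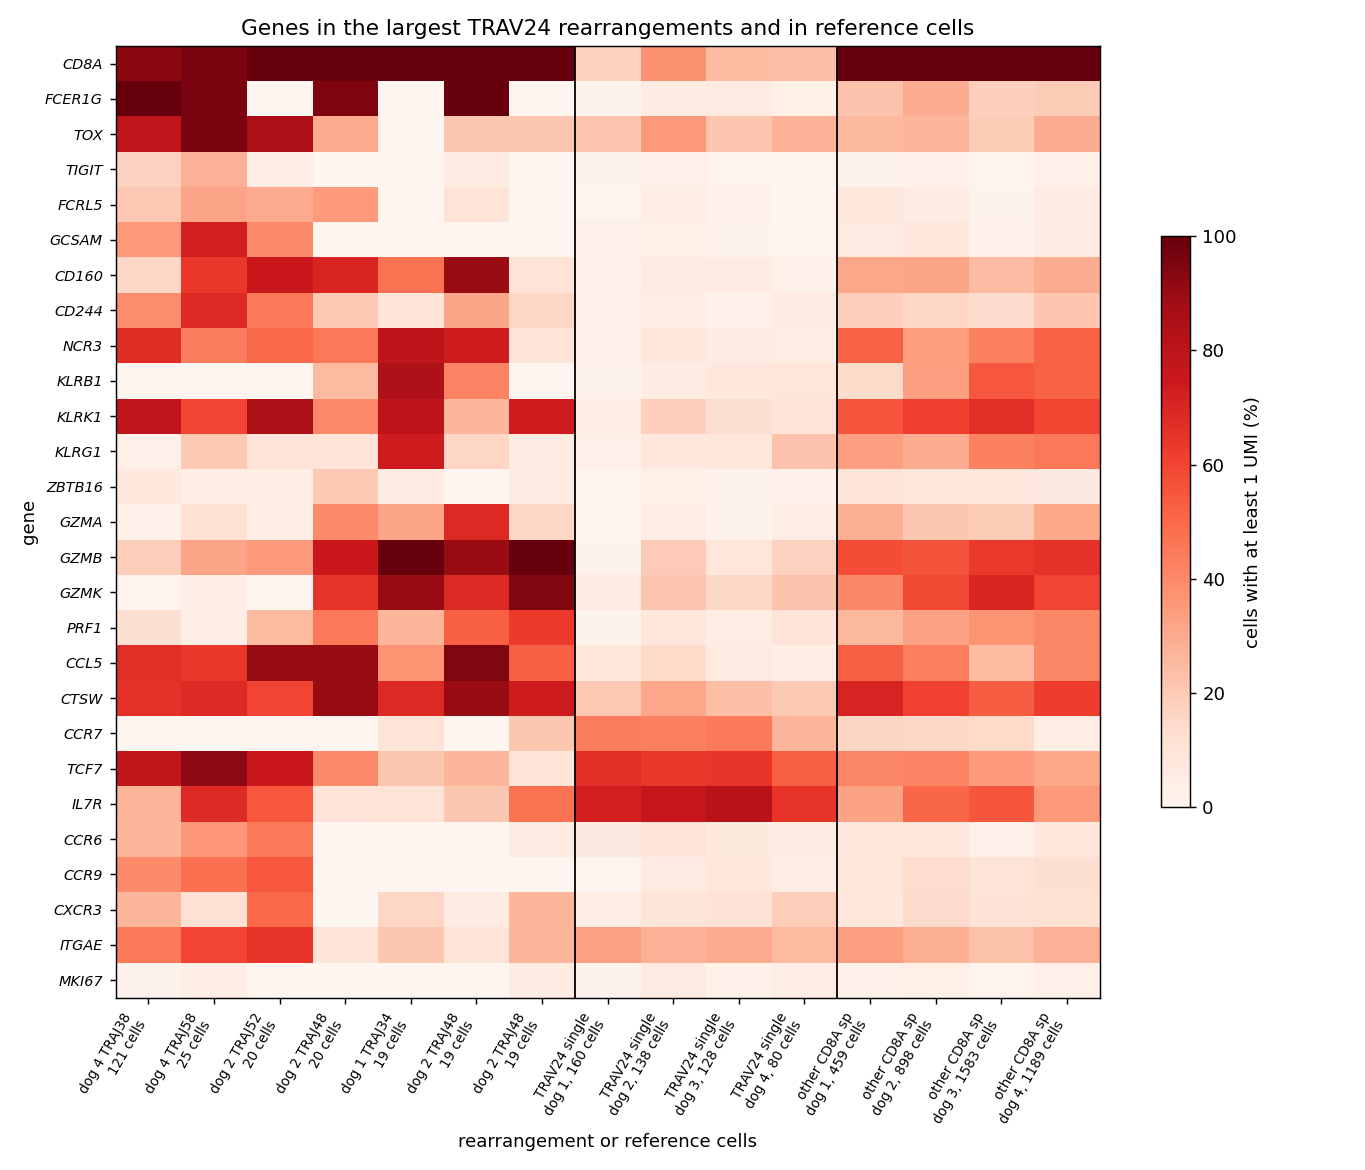
Share of cells (%) with at least 1 UMI of each gene (rows) in the 7 large TRAV24 rearrangements (left), in TRAV24 cells of single-cell rearrangements by dog (middle) and in other CD8A sp cells by dog (right). TOX, GCSAM, CCR9 and TCF7 are dark in the first 3 columns, where GZMB lies at 19 to 35%, and GZMB lies at 75 to 100% in the next 4.

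Not all expanded TRAV24 rearrangements were CD8A+. The TRAJ52 rearrangement of dog 3 shown above had CD4 in 70% and CD8A in 40% of its 10 cells, FCER1G in none and TOX in 10.0%, and was paired with TRBV26/TRBJ2-5, whereas the TRAJ52 rearrangement of dog 2, with a junction of the same length, had CD8A in 100%, CD4 in none and TOX in 85.0%. A TRAJ48 rearrangement of dog 3 with 10 cells had CD4 in 60% and CD8A in 10%. Cells in rearrangements of several cells made up 20.8, 49.8, 31.9 and 70.9% of the TRAV24 contigs and 12.8, 40.1, 44.9 and 56.9% of the others, a difference without a constant sign (exact permutation p = 0.5, n = 4). The TRAJ38 rearrangement alone was 44.0% of the TRAV24 cells of dog 4, while the largest rearrangements of dogs 1 to 3 were 9.41, 7.33 and 5.32%.

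The genes of TRAV24 cells were next compared with those of all other cells with a TRA contig, using the UMI counts summed per dog and group and a fit with dog as a block. Receptor genes were left out of the counts. Of 10051 genes, 42 were higher and 9 lower in TRAV24 cells (0.507% of those tested, 0.418% higher and 0.0895% lower, edgeR quasi-likelihood test, adjusted p below 0.05; 35 genes with DESeq2). The count depended on the dogs used, with 68, 18, 154 and 21 genes without dogs 1, 2, 3 and 4, and it was 2 genes without the block. TRAV24 cells held more CD8A sp cells in 3 of 4 dogs, and the comparison within CD8A sp cells was made for that reason. Fitted over all tested genes, the median log2 fold change was -0.00.

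Among innate-like receptors and adaptors, 3 of 16 tested genes rose and none fell, with a median log2 fold change of 0.27. CD160, a receptor of cytotoxic lymphocytes, stood at 44.6, 166, 52.0 and 80.4 CPM in the TRAV24 cells of dogs 1 to 4 and at 18.3, 33.9, 36.3 and 33.6 CPM in the others. It was higher in each dog, and the groups did not overlap (log2 fold change 1.45 ± 0.198 SE, adjusted p = 0.00122). CD244, a receptor of natural killer and CD8 T cells, rose by 1.27 ± 0.198 (adjusted p = 0.00418), a call that was lost without dog 2 (adjusted p = 0.178) or dog 4 (adjusted p = 0.106). FCER1G stood at 90.4, 356, 65.0 and 1026 CPM against 36.2, 84.6, 78.9 and 69.2 CPM. It was higher in 3 of 4 dogs and lower in dog 3 (log2 fold change 2.01 ± 0.402 SE). Without the shared cells dog 1 stood at 72.0 against 35.8 CPM (1.96). FCER1G is one of the 3 genes counted above, and as a marker known beforehand it lends that count no support. Receptors such as KLRB1 (log2 fold change -0.12, adjusted p = 0.965) and NCR3 (0.91, adjusted p = 0.149) did not pass.

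Of the genes grouped as TOX and inhibitory receptors, 3 of 11 rose and none fell, with a median of 0.60. This list, like the others, was drawn up with earlier results of these data known, so such counts lend no independent support. FCRL5, an Fc receptor-like protein, had the largest log2 fold change of the genes named by the rule in this comparison, with 3.43, 31.0, 11.8 and 37.4 CPM against 2.59, 3.36, 1.60 and 6.44 CPM (2.54 ± 0.321 SE, adjusted p = 0.000663). The level of dog 1 was close to that of its other cells, and those of the remaining dogs were well above. GCSAM stood at 13.7, 20.9, 24.8 and 78.0 CPM against 5.65, 6.99, 6.36 and 5.77 CPM, without overlap (2.36 ± 0.325 SE, adjusted p = 0.00136). TIGIT, an inhibitory receptor, rose by 2.21 ± 0.355 (adjusted p = 0.00497; adjusted p = 0.166 without dog 4). TOX itself stood at 73.3, 126, 85.1 and 258 CPM against 77.9, 78.4, 65.8 and 86.8 CPM (0.74 ± 0.170 SE).

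Of the cytotoxic genes, 2 of 9 rose and none fell, with a median of 0.40. CCL5 stood at 1127, 2420, 809 and 1487 CPM against 708, 497, 339 and 558 CPM, and the groups did not overlap (1.40 ± 0.158 SE, adjusted p = 0.000187). CTSW, a cathepsin of cytotoxic cells, rose by 0.98 ± 0.136 (adjusted p = 0.00136; adjusted p = 0.0692 without dog 2), whereas GZMB (0.35, adjusted p = 0.789), GZMK (0.40, adjusted p = 0.612) and PRF1 (0.12, adjusted p = 0.940) did not pass. Of the homing receptors, CCR6 rose by 0.85 ± 0.137 (adjusted p = 0.00497) and ITGAE by 0.48 ± 0.0974 (adjusted p = 0.0333), the other 9 tested did not pass, and both of these calls were lost without dog 2 or without dog 4. CCR9, present in 3 large rearrangements, stood at 16.0, 53.5, 69.8 and 85.3 CPM against 12.5, 92.6, 69.3 and 99.99 CPM and did not pass.

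Other genes with the largest rises were UPB1, an enzyme of pyrimidine breakdown (1.91), ABCB1, the efflux pump P-glycoprotein (1.30), PTPN22, a phosphatase that restrains receptor signalling (1.22), CD96, a receptor of natural killer and T cells (1.17) and STRBP, an RNA-binding protein (1.13). All 5 were higher in 4 of 4 dogs, but only STRBP kept its call without each dog in turn. UPB1 lost it without dog 2 or 4, ABCB1 without dog 4, and PTPN22 and CD96 without dog 2. Among the naive and central memory genes 1 of 8 fell and none rose, with a median of -0.26. IL7R, the receptor for the survival cytokine IL-7, stood at 431, 629, 670 and 348 CPM against 582, 885, 769 and 741 CPM, lower in each dog (-0.56 ± 0.105 SE, adjusted p = 0.0199; adjusted p = 0.190 without dog 2). CD4 fell by 0.91 on the log2 scale (adjusted p = 0.0385; adjusted p = 0.506 without dog 2 and 0.0816 without dog 4) and ZC3H12D, an RNA-degrading regulator, by 0.82 (adjusted p = 0.0181; adjusted p = 0.258 and 0.0712 without the same dogs). CD8A, with 358, 853, 401 and 758 CPM against 175, 250, 489 and 383 CPM, was higher in dogs 1, 2 and 4 (0.89). Of the coreceptor and surface genes, CD7 rose (0.83, adjusted p = 0.0275; adjusted p = 0.326 without dog 2) and CD4 fell, out of 10 tested.

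Genes of MHC class II (6 tested), helper factors and cytokines (8 tested) and activation and the cell cycle (8 tested) gave no call in either direction, with medians of 0.05, -0.17 and 0.11. Markers of other cells did not separate the groups. CD79A made up nearly all of the summed B cell markers and stood at 10779, 8336, 9488 and 7522 CPM in the TRAV24 cells and at 10219, 9258, 9958 and 9229 CPM in the others, while 2 or 3 of the 5 B cell markers were at 0 in the TRAV24 cells of each dog. Its level is high for T cells, and its source was not tested. Myeloid markers summed to at most 3.43 CPM and platelet and erythroid markers to at most 3.25 CPM in the TRAV24 cells, and no gamma delta marker of the list was in the gene table.

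With single-cell rearrangements only, 18 genes were called, 14 higher and 4 lower, and 10 of the 51 genes were among them. The log2 fold changes of CD8A and FCER1G were 0.85 and 1.19. CTSW rose by 0.77 (adjusted p = 4.35e-06) and CCL5 by 0.75 (adjusted p = 5.68e-05). CD4 fell by 0.58 (adjusted p = 0.000370) and IL7R by 0.27 (adjusted p = 0.00892). GCSAM (1.01, adjusted p = 0.721) and TIGIT (1.02, adjusted p = 0.880) did not pass, and FCRL5 was too low to be tested. ABCB1 changed sign (-0.11, adjusted p = 0.993).

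Within CD8A sp cells the TRAV24 cells differed in fewer genes. The comparison used 54, 154, 56 and 179 TRAV24 cells against 459, 898, 1583 and 1189 others. The others included the TRAV9-11/TRAJ28 cells, and a fit without them was added. Of 7676 genes, 4 were higher and 13 lower (0.221% of those tested, 0.0521% higher and 0.169% lower; 11 genes with DESeq2; 61, 12, 5 and 8 genes without dogs 1, 2, 3 and 4; 2 without the block). Without the TRAV9-11/TRAJ28 cells, an alternative chosen after seeing the data, 3 genes were called, FCER1G and 2 genes without a symbol. As a marker known beforehand, FCER1G lends that count no support, and its levels are given as a description. Of the 17 calls 16 could be tested again, and 2 were kept, but all 16 had the same sign as before. FCER1G then stood at 321, 617, 202 and 1478 CPM against 169, 279, 136 and 296 CPM, higher in 4 of 4 dogs by this measure (1.33 ± 0.209 SE). Without the receptors shared with dog 4, the TRAV24 level of dog 1 was 264 CPM. By share of cells dog 1 then ran the other way, with 7.84% of its TRAV24 cells against 12.1% of the other cells, from which shared receptors were not removed. No gene of the cytotoxic list (9 tested) passed, and its median log2 fold change was -0.46 beside 0.01 for all genes tested. GZMB, for example, stood at 1139, 969, 614 and 564 CPM against 1293, 1066, 1359 and 1809 CPM, lower in 4 of 4 dogs (-0.78, adjusted p = 0.239). Without the TRAV9-11/TRAJ28 cells, which left out 1 TRAV24 cell of dog 4 as well, that direction did not hold in every dog. GZMB then stood at 1139, 969, 614 and 531 CPM against 730, 913, 1311 and 1713 CPM, higher in dogs 1 and 2 (-0.52, adjusted p = 0.862). Against all other CD8A sp cells, 2 of 16 innate-like genes fell and none rose. KLRG1, an inhibitory receptor of effector cells, stood at 117, 32.0, 71.3 and 63.6 CPM against 144, 99.8, 167 and 186 CPM (-1.25 ± 0.193 SE, adjusted p = 0.0157). IL12RB2, a chain of the interleukin-12 receptor, fell by 1.20 ± 0.199 (adjusted p = 0.0256). Both calls were lost without dog 2, 3 or 4, at adjusted p between 0.0528 and 0.0952, and without the TRAV9-11/TRAJ28 cells, where the log2 fold changes were -0.95 and -0.79 (adjusted p of 0.568 and 0.708). No gene passed in the lists of TOX and inhibitory receptors (9 tested, median 0.59), homing receptors (8, median 0.28), naive and central memory genes (7, median -0.21), surface genes (8, median 0.04), MHC class II (6, median 0.01), helper factors (6, median -0.39) and activation and cell cycle (7, median -0.06).

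PI3, the elastase inhibitor elafin, passed in this comparison but not without the TRAV9-11/TRAJ28 cells. It stood at 0, 4.17, 11.9 and 9.97 CPM in CD8A sp TRAV24 cells and at 26.5, 92.6, 108 and 72.7 CPM in the other CD8A sp cells. Every TRAV24 value lay below every other value (-3.52 ± 0.265 SE, adjusted p = 1.01e-05), and the call held without each dog in turn, with adjusted p of at most 0.00129. Without the TRAV9-11/TRAJ28 cells the other CD8A sp cells stood at 9.26, 31.6, 22.3 and 11.8 CPM, and the gene did not pass (-1.59, adjusted p = 0.535). Also lower were ICAM1, an adhesion molecule (-1.90), ADGRL1, an adhesion G protein-coupled receptor (-1.41), BST2, the interferon-induced tetherin (-0.98) and BCL2A1, an inhibitor of apoptosis (-0.76). ICAM1 and ADGRL1 lost the call without dog 2, 3 or 4 (adjusted p of 0.0674 to 0.373), BCL2A1 without dog 3 or 4 (0.179 and 0.0825) and BST2 without dog 2 (0.0528). Those higher were RCAN2, a regulator of calcineurin (0.87), GYG1, the primer of glycogen synthesis (0.86), EPHX1, an epoxide hydrolase (0.82) and STRBP (0.64). STRBP lost the call without any single dog (adjusted p of 0.0587 to 0.253), RCAN2 and GYG1 without dog 2, 3 or 4 (0.0674 to 0.373) and EPHX1 without dog 2 or 4 (0.0917 and 0.116). GYG1 and ADGRL1 also lost it without the shared cells of dog 1 (0.0593 and 0.0606), and all 8 of these genes lost it without the TRAV9-11/TRAJ28 cells (0.134 to 0.624). Their log2 fold changes were then smaller but of the same sign, at -1.43 for ICAM1, -1.20 for ADGRL1, -0.79 for BST2, -0.55 for BCL2A1, 0.65 for RCAN2, 0.69 for GYG1, 0.64 for EPHX1 and 0.61 for STRBP. GCSAM (1.77, adjusted p = 0.0630) did not pass here. The log2 fold changes of FCER1G and TOX were 0.81 and 0.90, and the level of FCER1G in dog 1 went from 321 against 269 CPM to 264 against 274 CPM without the shared cells. GCSAM passed without the TRAJ38 rearrangement of dog 4 (1.64, adjusted p = 0.0281).

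The 745 cells with TRAV9-11 joined to TRAJ28 were then compared directly, using their CD8A sp cells (153, 181, 244 and 96) against the CD8A sp TRAV24 cells. In dog 4 the 1 TRAV24 cell that also carried TRAV9-11/TRAJ28 was left out, so its levels differ slightly from those above. FCER1G stood at 321, 617, 202 and 1478 CPM in TRAV24 cells against 521, 1163, 1074 and 251 CPM (-0.40 ± 0.406 SE), and dog 4 ran opposite to the other 3. In all, 153 genes were higher and 251 lower in TRAV24 cells, of 6065 (6.66% of those tested, 2.52% higher and 4.14% lower; 167 genes with DESeq2; 369, 213, 383 and 386 without dogs 1, 2, 3 and 4).

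Of the innate-like genes 11 of 16 were lower in TRAV24 cells than in the TRAV9-11/TRAJ28 cells and none was higher, with a median of -1.49 beside 0.01 for all genes tested. ZBTB16, the factor PLZF that drives innate-like T cell development, stood at 4.17, 11.1, 3.96 and 15.0 CPM against 72.1, 49.4, 59.5 and 75.4 CPM (-2.62 ± 0.310 SE, adjusted p = 3.59e-06), without overlap. KLRG1 (-2.14) and IL12RB2 (-2.35) were lower in 4 of 4 dogs, and KLRB1 (-1.96, adjusted p = 0.000734) in 3 of 4, with the opposite order in dog 1 (200 against 92.0 CPM; adjusted p = 0.0802 without dog 2). Of the cytotoxic genes 5 of 9 were lower, among them GZMA (-2.0), PRF1 (-2.0) and GZMB (-1.53), and none was higher. PI3 stood at 0, 4.17, 11.9 and 8.76 CPM against 70.3, 386, 686 and 852 CPM (-6.47 ± 0.226 SE, adjusted p = 5.62e-15).

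Conversely, 5 of 7 naive and central memory genes were higher, including TCF7 (2.21), IL7R (1.96) and CCR7 (2.76), while CD27, a costimulatory receptor, was lower (-1.12). TOX stood at 96.0, 151, 143 and 327 CPM against 19.8, 26.1, 24.3 and 22.3 CPM (2.79 ± 0.197 SE), so every TRAV24 value was above every other value. GCSAM had no UMI in the 4 sums of TRAV9-11/TRAJ28 cells, whereas 138 UMIs would have been counted in them at the TRAV24 level of each dog, so the level in TRAV24 cells was at least 46.1-fold higher (against a floor of 3 counts over the group). Of the homing receptors 4 of 8 were higher, namely CCR9 (5.13), CXCR3 (3.48), CCR6 (2.88) and ITGAE (1.51), and CXCR4 was lower (-0.76). MKI67, a marker of dividing cells, rose by 3.65, with 37.6, 54.2, 214 and 40 CPM against 0, 4.35, 15.8 and 8.38 CPM. CD6, a T cell surface receptor, was higher by 2.64, and CD2 and CD7 passed in the same direction among 8 surface genes. Of the TOX and inhibitory genes TOX and GCSAM were higher and EOMES was lower (6 tested). TOX was a marker known beforehand and GCSAM had no UMI in the TRAV9-11/TRAJ28 sums, so neither lends that count support. Of the helper factors TBX21 and ZEB2 were lower (4 tested). Of the activation and cell cycle genes MKI67 was higher and FOS and NR4A1 lower (5 tested), and no MHC class II gene passed (6 tested). Median depth differed, with 4123.0 to 4244.5 UMIs per TRAV24 cell and 3299.0 to 3702.5 per TRAV9-11/TRAJ28 cell, and its part in these differences was not tested.

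Set among the 21 TRAV genes with at least 100 contigs, TRAV24 came after TRAV9-11 in CD8A sp cells (44.4% ± 19.0 against 51.9% ± 5.62, SD, n = 4) and in FCER1G (20.6% ± 23.8 against 23.9% ± 4.81), and first in TOX (35.2% ± 16.3). For each of these shares the SD of TRAV24 between dogs was larger than its distance to the neighbouring genes in the order. With single-cell rearrangements only it was placed at 2, 3 and 3, with 23.4, 4.42 and 26.3%.

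TRAV24 clones differed from the other clones in the TRAJ genes they used. Use was counted once per clone (a TRA rearrangement with the set of TRB contigs of its cells), over 603 TRAV24 and 14923 other clones with a TRAJ call. Cells without a TRB contig were included. A rearrangement whose cells differed in the TRB contigs found counted more than once, so the 603 clones came from 569 rearrangements. With 1 clone per TRA rearrangement, an alternative chosen after seeing the data, 22 of the 23 calls described next were kept. Of 75 TRAJ, TRBV and TRBJ genes tested, 23 differed (30.7% of those tested), namely 10 TRAJ genes higher and 9 lower of 42, 3 TRBV genes higher and 1 lower of 21, and none of 12 TRBJ genes. The TRAJ genes are numbered from the constant region outwards, so high numbers lie towards the V genes. The 10 more frequent ones were TRAJ39, 41, 44, 45, 48, 49, 52, 54, 56 and 58, and the 9 less frequent ones TRAJ4, 5, 15, 16, 18, 20, 21, 23 and 28. Every gene of the first set thus has a number of 39 or above and every gene of the latter a number of 28 or below.

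TRAJ58 showed the largest rise, with 4.57, 7.47, 5.30 and 10.7% of the TRAV24 clones of dogs 1 to 4 against 0.603, 0.781, 0.991 and 0.662% of the other clones (log2 fold change 3.12 ± 0.370 SE, adjusted p = 2.93e-13). It was more frequent in every dog and remained called without each dog in turn. These shares count 8, 13, 8 and 11 TRAV24 clones. Counted per rearrangement, TRAJ58 was used by 8, 9, 8 and 7 of the 169, 162, 144 and 94 TRAV24 rearrangements, so clone counting raised its share in dogs 2 and 4. TRAJ28, the partner of TRAV9-11 above, fell from 5.38, 7.89, 6.30 and 4.70% of the other clones to 0, 0.575, 2.65 and 1.94% of the TRAV24 clones (-2.41 ± 0.419 SE, adjusted p = 1.05e-06; 0.0807 without dog 2). TRAJ4 and TRAJ18 occurred in 0 of the 603 TRAV24 clones, which allows a share of up to 0.498%, against 1.98 and 1.56% of the other clones, at least 3.96-fold and 3.17-fold lower when the dogs are weighted by their TRAV24 clones (floor of 3 clones over the group). TRAJ18 is the J gene of the invariant alpha chain of natural killer T cells in humans and mice.

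The number of partner genes called depended on the dogs, with 6 without dog 1, 1 without dog 2, and 21 without dog 3 or dog 4. All 23 kept their direction in each of these fits. Counted per rearrangement, TRAJ numbers of 39 or above made up 66.3, 72.8, 59.0 and 71.3% of the TRAV24 rearrangements and 29.8, 32.9, 34 and 30.9% of the others, a split chosen after the values had been seen and given without a test. By the mean TRAJ number TRAV24 (41.4 ± 1.05, SD, n = 4) was placed at 4 of the 21 TRAV genes, behind TRAV38-2, TRAV38-1 and TRAV29, so the preference was not particular to it. Among TRB genes, TRBV1 (0.69, adjusted p = 0.00571), TRBV25 (0.70, adjusted p = 0.0405) and TRBV10 (1.07, adjusted p = 0.0458) were more frequent and TRBV28 (-0.77, adjusted p = 0.0485) less frequent. The TRBV1 call was lost without dog 1 or 2, that of TRBV10 without dog 1, 2 or 4, and those of TRBV25 and TRBV28 without any single dog. TRBV28 also lost it without the shared cells of dog 1 (adjusted p = 0.0527).

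**Figure D4:**
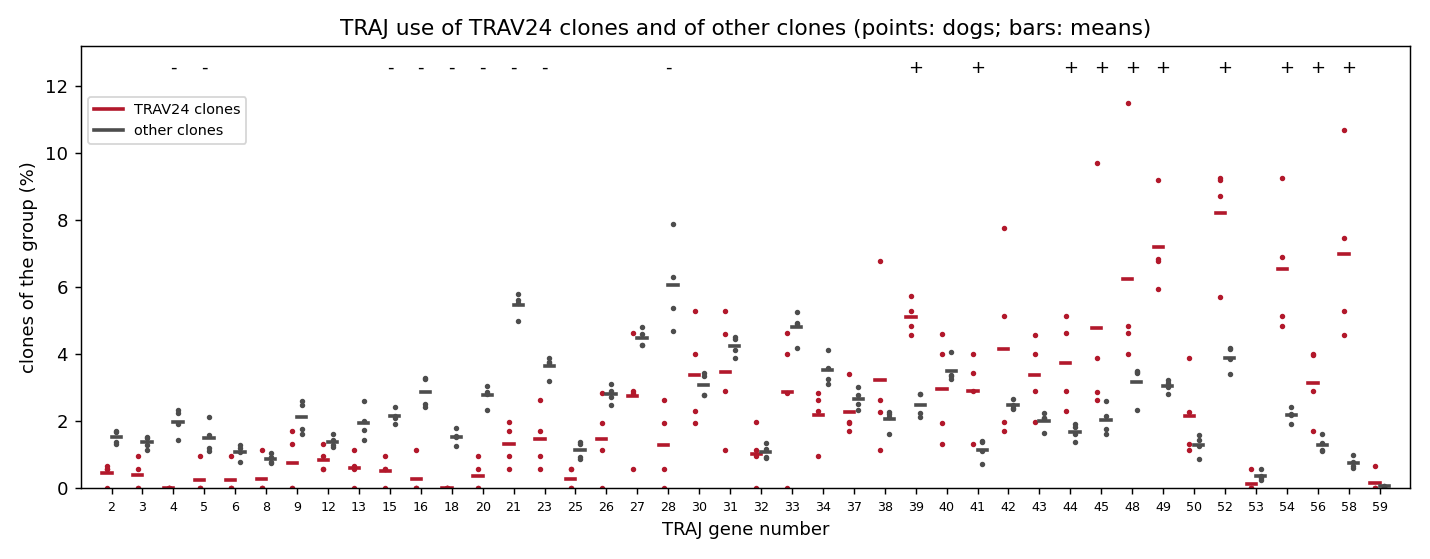
Share of clones (%) that used each TRAJ gene, ordered by gene number, for TRAV24 clones (red) and other clones (grey), with points for the 4 dogs and bars for their means. Plus and minus signs mark the 10 genes that were more and the 9 that were less frequent in TRAV24 clones by the test, and all plus signs lie at TRAJ39 or beyond.

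The junctions were short. Their mean length was 12.9, 12.7, 12.9 and 13 amino acids per rearrangement in dogs 1 to 4 against 13.6, 13.6, 13.7 and 13.6 for the other TRA rearrangements (exact permutation p = 0.13, n = 4, the smallest possible), lower in 4 of 4 dogs. A length of 13 amino acids was found in 33.7, 27.8, 27.8 and 30.9% of TRAV24 rearrangements against 21.8, 22.3, 21.2 and 22.6% (exact permutation p = 0.13, n = 4). It was higher in each dog, and the groups did not overlap. The authors' report on these same samples had singled out this length, so the test adds no separate support. The median number of bases assigned to neither V nor J was 4, and 51 of the 569 rearrangements had 0 such bases.

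Some junctions recurred between dogs. Of 557 distinct nucleotide junctions 12 were seen in 2 dogs, 4 of them in dogs 1 and 4, and none in more. Of 534 distinct amino acid junctions 22 were seen in 2 dogs and 4 in at least 3. The nucleotide junctions shared between dogs had a median of 0 unassigned bases.

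**Figure D5:**
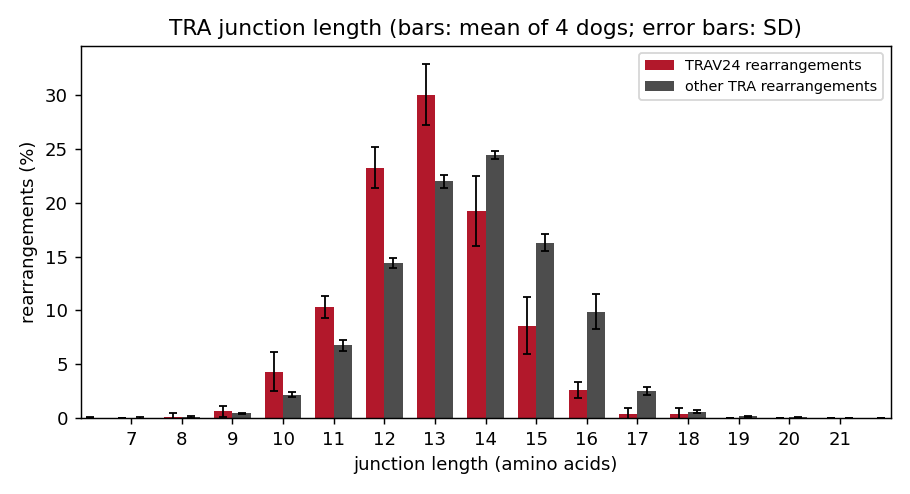
Share of TRA rearrangements (%) by junction length in amino acids, for TRAV24 (red) and other rearrangements (grey), as means of the 4 dogs with SD. At 13 amino acids the means are 30% and 22%, and lengths of 15 and above are less frequent with TRAV24.

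TRAV24 cells with a junction of 13 amino acids (80, 123, 54 and 155 cells) were compared with those of other lengths (122, 150, 134 and 120). The length was taken from the authors' report on these same samples, where it was dominant in a cluster with high FCER1G. Of 5726 genes 4 were higher and 1 lower (0.0873% of those tested, 0.0699% higher and 0.0175% lower). NCR3 (1.71, adjusted p = 0.0326) and CD96 (1.13, adjusted p = 0.0111) were higher in 4 of 4 dogs. ITGB1, an integrin chain of memory cells, was lower in 4 of 4 dogs (-1.05, adjusted p = 0.0326). FCER1G, also counted among the 4 higher genes, was higher in each dog (1.62). As a marker known beforehand, and high in the cluster that gave the length, it lends that count no support. None of the genes named passed with 1 cell per rearrangement, where 2 other genes were called, or with DESeq2 (0 genes; 369 genes had an unadjusted edgeR p below 0.05). No gene was called by edgeR without dog 2 (234 at an unadjusted p below 0.05), and 6, 37 and 4 were called without dogs 1, 3 and 4. Without the TRAJ38 rearrangement of dog 4, which has 13 amino acids as do forms A and B of dog 2, the FCER1G log2 fold change was 0.60.

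TRBV26 was the partner in 44 TRAV24 cells (9, 11, 18 and 6 in dogs 1 to 4), of which 23 were CD4 sp and 9 CD8A sp. None had an FCER1G UMI, against 217 of the 846 cells with another TRB. By dog the latter were 9 of 181, 50 of 249, 9 of 159 and 149 of 257 cells, so most lay in dog 4. In dogs 1 and 3 few cells had the gene with any partner. Since only dogs 2 and 3 had at least 10 TRBV26 cells, the expression test rests on 2 dogs. TRBV26 was taken from the authors' report on these same samples, where a cluster with high FCER1G used it often. In dog 3, 10 of the 18 cells were the TRAJ52 rearrangement with TRBV26/TRBJ2-5 shown above, so this arm is largely 1 rearrangement. The test called 14 of 4993 genes (0.28% of those tested), 5 higher (0.1%) and 9 lower (0.18%) (0 with DESeq2, 220 at an unadjusted edgeR p below 0.05). Of 7 cytotoxic genes, CCL5 (1.14, adjusted p = 0.000229) and GZMK (0.84, adjusted p = 0.0295) were higher and CTSW was lower (-2.24, adjusted p = 0.00252), with a median of -0.09. With sums of at least 5 cells CCL5 turned to -0.46 and GZMK did not pass (0.45, adjusted p = 0.998). IL7R was also higher (0.83, adjusted p = 0.0295) and CD160 lower (-3.79, adjusted p = 0.0116). FCER1G had no UMI in the TRBV26 sums of these 2 dogs. At the level of the cells with other partners in each dog, 25.3 UMIs would have been counted. That is at least 8.42-fold above a floor of 3 counts over the group. In dog 2, forms A and B held 38 of the 50 FCER1G+ TRAV24 cells. FCER1G is 1 of the 9 lower genes and, as a marker known beforehand with no UMI in the TRBV26 sums, lends that count no support.

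Another TRA contig was found beside 9.90, 10.2, 16.5 and 45.1% of the TRAV24 contigs and beside 13, 13.7, 12.7 and 12.2% of the others (exact permutation p = 0.625, adjusted p = 0.625, n = 4). Dog 4 was far above the other 3. Without the TRAJ38 rearrangement its share was 15.6%, and the mean difference fell from 7.48 to 0.29 percentage points.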

How the data were processed

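Cells were sequenced by the 5′ gene expression and V(D)J assays and processed by the authors with Cell Ranger 5.0.1, per the submitters' processing notes. The deposited matrices hold raw UMI counts per gene and cell, and the deposited contig tables hold receptor genes, junctions and UMI counts per contig. Totals were 26904346 to 35661623 UMIs per library. All 4 matrices were read with the 20257 genes of dog 2, since the gene list of dog 1 has 27980 lines. Cells with 500 to 20000 UMIs and at most 10% mitochondrial counts were kept, and no doublet caller was run. Contigs were joined to cells by library and barcode. Junction ends were compared with the most frequent sequence of each V and J gene in these contigs, as no genome was used. Counts were summed per dog and group (at least 10 cells) and tested with edgeR 4.0.16 (quasi-likelihood, low genes filtered, Benjamini-Hochberg threshold 0.05, dog as a block because both groups come from the same animal), with DESeq2 1.42.0 as an alternative, in R 4.3.3. T cell receptor genes were left out of counts of called genes. Partner genes were tested on clone counts with at least 10 clones per gene. Shares were tested by exact sign-flip permutation over the 4 dogs (two-sided). The fit was tested on simulated data. Named genes were the members of 13 fixed lists and the 10 (all and CD8A sp cells) or 5 largest called changes each way that had the same sign in all dogs and at least 20 CPM. The members and lists were chosen with earlier results of these data known. Alternatives were DESeq2, no filter, no block, each dog left out, 1 cell per clone, cells with 1 TRA and at most 1 TRB, and thinning to 2000 UMIs; those on single-cell rearrangements, 1 cell per rearrangement, the TRAJ38 rearrangement, the shared receptors and the TRAV9-11/TRAJ28 cells were chosen after seeing the data. Results of 2 list genes are not reported here.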

Additional observations from a re-analysis of the deposited data

Results flagged for a closer look

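In 2 of the 22 groups of 4 dogs checked, 1 dog lay far from the other 3, and chance alone marks about 1 in 20 such groups. The share of TRAV24 cells with both FCER1G and TOX was 43.6% in dog 4 against 1.60 to 5.86% in dogs 1 to 3. The largest TRAV24 rearrangement of dog 4 had 121 cells against 10 to 20 in the others. TRAV24 UMIs also appeared in cells that had no TRA contig and were used in no comparison, at 1.80, 3.5, 2.30 and 3.03% of such cells in dogs 1 to 4, above the 1.03, 1.07, 0.873 and 1.69% of cells with another TRA contig.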

How the results depend on the processing

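Results rest on 4 dogs, and large clones weigh heavily in 2 of them. Both groups of a comparison come from the same dogs, so pairing by dog was part of the fit. Without the replicate block, the comparison of all cells gave 2 genes, that of CD8A sp cells 2, that by junction length 0 and that by TRBV26 0. DESeq2 gave 11 genes in CD8A sp cells, 167 against TRAV9-11/TRAJ28 cells, 0 by junction length and 0 by TRBV26. Without a filter on low counts, 274, 199 and 64 genes were called in all cells, CD8A sp cells and by junction length. Leaving out 1 dog at a time gave 18 to 154 genes in all cells, 5 to 61 in CD8A sp cells, 213 to 386 against TRAV9-11/TRAJ28 cells, 0 to 37 by junction length and 1 to 21 partner genes, and was not run for TRBV26, which had 2 dogs. Single-cell rearrangements gave 18, 6, 136 and 1 genes in the first 4 comparisons, and 1 cell per TRA rearrangement 27, 255 and 2 in the latter 3. In CD8A sp cells leaving out TRAV9-11/TRAJ28 cells gave 3 genes, 1 cell per clone gave 30 genes and cells with 1 TRA and at most 1 TRB contig gave 31. Without the TRAJ38 rearrangement of dog 4, 2 genes were called by junction length. Counting cells in place of clones gave 9 partner genes. The difference in the share with another TRA contig turned to -0.989 percentage points without dog 4 (range without 1 dog -0.989 to 11.2) and to -2.98 with single-cell rearrangements. ABCB1 turned to -0.11 with single-cell rearrangements, and CCL5 in the TRBV26 comparison to -0.46 with sums of at least 5 cells. The cause of these changes was not tested. The shares of CD8A sp, CD4 sp, FCER1G+ and TOX+ cells kept the sign of their mean difference under every alternative run, with ranges without 1 dog of 18.1 to 32.4, -25.6 to -15.7, 4.19 to 21.2 and 4.81 to 16.1 percentage points. Without the dog 1 cells that carried a receptor of dog 4, 47, 13, 401 and 5 genes were called in the first 4 comparisons and 22 partner genes.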
